A study of Homo sapiens with 17 samples.

Results

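FOXA1-not-FOXA2 sites are genomic sites that carried a FOXA1 peak both at full length and after deletion of the FOXA1 CTD, and that were listed in neither of the 2 FOXA2 peak lists. Peaks of the lists FOXA1FL, FOXA1dCTD, FOXA2FL and FOXA2dCTD on chromosomes 1 to 22 and X were merged where they overlapped by at least 1 bp, which gave 103347 merged sites. Of these, 4903 (4.74%) were FOXA1-not-FOXA2 sites. They made up 23.6% (95% interval 23.0 to 24.2) of the 20770 merged sites held by both FOXA1 lists. The others were 9465 sites of all 4 lists and 6402 sites with a peak in 1 of the FOXA2 lists. A further 5207 merged sites, called FOXA2-not-FOXA1 here, were in both FOXA2 lists and no FOXA1 list. These names refer to FOXA1 and FOXA2 alone, since FOXA3, SOX2 and the fusion had no part in the rule and some of the sites carried their peaks. Membership was chosen from the FOXA1 and FOXA2 peak calls themselves, and values from those lists are given as descriptions.

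The peaks came from Flag ChIP-seq in U2OS, a human osteosarcoma cell line grown in culture, with stable lines that express a Flag-tagged factor from a doxycycline-inducible (Tet-on) construct. All 8 factor groups were induced with doxycycline at 500 ng/ml for 4 days, as the treatment labels give it, and each had 2 biological replicates that the authors combined into 1 list. The groups were FOXA1 (Tet-on FOXA1), FOXA1dCTD, FOXA2, FOXA2dCTD, FOXA3 and FOXA3dCTD, in which dCTD marks the protein without its CTD, SOX2 at full length, and a fusion of SOX2 with the FOXA2 CTD. All binding was therefore that of an induced, tagged protein, and cells not induced with a factor entered only as 1 input sample, for which no peak list was used. Because each group has 1 combined list of unknown read depth, no difference between lists has a replicate check. Intervals are 95% Wilson intervals for shares and Newcombe intervals for differences. They cover counting error only, over sites or, for sequence words, over the promoter windows described below.

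FOXA1, FOXA2 and FOXA3 are forkhead transcription factors that share a winged-helix DNA-binding domain and recognise closely related sequences. They are known as pioneer factors, which can bind sites in closed chromatin. FOXA1 is known for its part in luminal breast and prostate cells, where it works with steroid hormone receptors, and FOXA2 for its part in endoderm and liver. SOX2, of the HMG-box family, recognises a different sequence.

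Reference sequence was at hand for promoter windows, each running from 250 bases before to 50 after an annotated start in RefSeq (GRCh38.p14). FOXA1-not-FOXA2 sites overlapped few of them: 63 of the 4903 sites, to which their sequence results below are limited. These 63 touched 79 windows of 71 genes, 47 of them protein-coding, out of 34961 windows. These windows were searched on both strands for a forkhead core, the words TGTTTAC or TGTTTGC and likewise TATTTAC or TATTTGC. The 4 shown here were chosen because they span the range found, from a match at the summit to no match, and only the bases before the start that the FOXA1-not-FOXA2 site covers are printed, 5′ to 3′ on the gene's strand, with forkhead cores in capitals.
CTNNA3: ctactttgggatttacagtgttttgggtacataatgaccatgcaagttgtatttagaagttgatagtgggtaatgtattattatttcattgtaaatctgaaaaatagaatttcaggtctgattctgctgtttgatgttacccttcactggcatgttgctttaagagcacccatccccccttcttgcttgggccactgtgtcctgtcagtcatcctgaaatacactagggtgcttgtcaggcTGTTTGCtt
TPGS1: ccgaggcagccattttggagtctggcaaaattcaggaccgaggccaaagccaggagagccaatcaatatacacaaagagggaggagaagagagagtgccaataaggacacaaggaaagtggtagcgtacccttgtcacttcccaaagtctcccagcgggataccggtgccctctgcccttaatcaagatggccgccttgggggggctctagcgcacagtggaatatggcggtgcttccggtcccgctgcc
LOC105370972: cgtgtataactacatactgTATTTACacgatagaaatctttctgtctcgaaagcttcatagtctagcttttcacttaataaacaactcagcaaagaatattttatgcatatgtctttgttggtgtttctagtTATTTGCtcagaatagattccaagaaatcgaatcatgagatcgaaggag
OR4C6: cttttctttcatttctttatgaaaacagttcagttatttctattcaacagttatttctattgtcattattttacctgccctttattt
The CTNNA3 stretch, chr10:67665661-67665910 on the minus strand, lies before an alternative start of the gene for an alpha-catenin of cell junctions. Its summit was 5 bp from that start, and TGTTTGC begins 9 bases before the start. The stretch at TPGS1, chr19:507247-507496 on the plus strand, holds the summit, 151 bp from the start of this subunit of the tubulin polyglutamylase complex, and no forkhead core. The LOC105370972 stretch, chr15:91245244-91245424 on the minus strand, holds TATTTAC and TATTTGC, beginning 231 and 118 bases before the start, but the summit lay 510 bp from the start and outside the window. At OR4C6, an olfactory receptor gene, the site ended with the stretch chr11:55661951-55662037 on the plus strand, which holds no forkhead core, and its summit lay 751 bp from the start, outside the window.

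Over all 79 windows touched by a FOXA1-not-FOXA2 site, 9 held a forkhead core, or 11.4% (6.11 to 20.3), against 12.1% of all promoter windows in the table. Windows touched by a site of all 4 lists held one in 65 of 304 cases, 21.4%, a difference of -9.99 percentage points (-17.2 to -0.166). The intervals here count windows as separate, although the 79 windows came from 63 sites and windows of 1 gene can share bases. An upper limit as near 0 as -0.166 is therefore not taken as clear of 0. Windows touched by a FOXA2-not-FOXA1 site gave 21.5% of 293. The gap was wider where the summit itself lay in the window. Of 21 such windows at 19 FOXA1-not-FOXA2 sites, 2 held a forkhead core (9.52%, 2.65 to 28.9), against 33 of 81 (40.7%) at sites of all 4 lists. That difference was -31.2 points (-44.1 to -9.38). Sites with 1 FOXA2 list gave 19 of 53 windows (35.8%), a difference of -26.3 points (-41.4 to -3.76), and FOXA2-not-FOXA1 sites 43 of 106 (40.6%). The restriction to summits was chosen after the data were seen. FOXA1-not-FOXA2 sites with a summit in a window were also weaker FOXA1 sites, with a median strength (the lower −log10 p over both FOXA1 lists and replicates) of 3.25 against 4.07 in all 4 lists, and the part of strength in this difference was not tested.

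Other words in the same windows gave small numbers. The AP-1 word TGACTCA or TGAGTCA was in 3.80% of windows touched by FOXA1-not-FOXA2 sites, against 11.8% for all 4 lists and 4.92% of all windows. The RUNX word TGTGGTT was in 7 windows, 8.86% (4.36 to 17.2), against 1.32% for all 4 lists and 4.28% of all windows. The TEAD word GGAATGT was in 2.53% against 3.29% and 3.47%. The GC box GGGCGG was in 40.5% against 50.3% and 45.0%, while the median G+C content was 58.3%, 56.8% and 58.7% in the same order. A match describes the reference letters and is not a site, and neighbouring windows of 1 gene share bases.

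Before the values, the stretches that stood apart are described. On each chromosome the longest stretch without an annotated gene was set apart, 23 stretches of 164.4 Mb in all, which include the modelled centromere sequence of chromosome 1 and the centromere and short arm of chromosome 13. They held 253 FOXA1-not-FOXA2 sites, 5.16% of the total, of which 188 were on chromosome 1 and 54 on chromosome 13. Inside them FOXA1-not-FOXA2 sites were 52.3% (47.8 to 56.7) of the 484 sites of both FOXA1 lists, and outside them 22.9% (22.3 to 23.5) of 20286. Results are given with and without these stretches where they differ. The FOXA3FL list shares 4981 of its 6082 peaks on these chromosomes, as identical rows, with the FOXA3dCTD list, so both FOXA3 lists count largely as 1 measurement.

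The strength of a site is the smaller, over both FOXA1 lists, of the −log10 p that the peak reached in its weaker replicate. These p-values are the authors' and serve only to rank sites. FOXA1-not-FOXA2 sites were weak FOXA1 sites as a class. Outside the stretches their strength ranged from 2.44 to 13.9 with a median of 3.53, against medians of 3.81 at sites with 1 FOXA2 list and 4.38 at sites of all 4 lists. At full length the median −log10 p was 4.06 at FOXA1-not-FOXA2 sites and 5.08 at sites of all 4 lists. In the FOXA1dCTD list it was 4.08 and 6.32. Peaks were narrower too, with median widths of 653 bp at full length and 602 bp after CTD deletion, against 772 and 721 bp.

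Sites of both FOXA1 lists were split by strength into 4 classes of about equal size, and the share of FOXA1-not-FOXA2 sites was lower in each stronger class. It was 35.0% in the weakest class, 28.1% in the next, then 19.5%, and 8.95% in the strongest class. The median irreproducible discovery rate (IDR, which is low where both replicates rank a peak alike) was 0.0985 in the FOXA1FL list, against 0.0436 at sites of all 4 lists. An IDR of at most 0.05 in both FOXA1 lists was met by 24.7% of FOXA1-not-FOXA2 sites outside the stretches and 54.0% of sites of all 4 lists. The weakest IDR allowed in the lists was 0.200 for FOXA1FL, 0.0501 for FOXA1dCTD, 0.351 for FOXA2FL and 0.250 for FOXA2dCTD, so the FOXA2 lists reached further down than the FOXA1 lists. Absence from a FOXA2 list means only that no peak passed its limit.

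**Figure D1:**
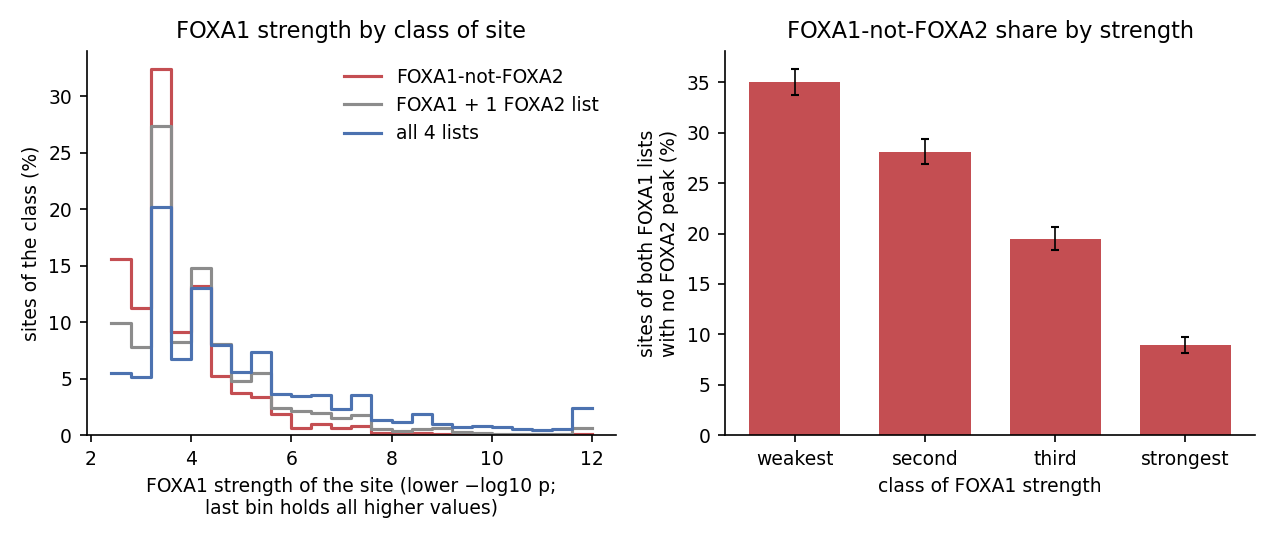
Left, the distribution of FOXA1 strength (lower −log10 p, horizontal axis) for 3 classes of sites outside the gene-free stretches, as percent of the sites of each class. Right, the percent of sites of both FOXA1 lists that were FOXA1-not-FOXA2 in each class of strength, with 95% Wilson intervals: it runs from 35.0% in the weakest to 8.95% in the strongest class.

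The values of both FOXA1 lists, which chose the sites, were also set side by side. They come from lists of unknown depth and are given as a description. Outside the stretches 2316 FOXA1-not-FOXA2 sites (49.8%) had the higher −log10 p in the FOXA1dCTD list, 2245 in the FOXA1FL list, and 89 were equal, with a median difference of 0. At sites of all 4 lists the FOXA1dCTD value was the higher at 59.8%, with a median difference of 0.821. Inside the stretches it was the higher at 77.1% of FOXA1-not-FOXA2 sites, with medians of 7.53 after CTD deletion and 4.60 at full length. Summits of both lists lay within 100 bp of each other at 80.8% of FOXA1-not-FOXA2 sites outside the stretches and at 80.5% of sites of all 4 lists. Of the 4903 sites, 4875 held a single peak of each FOXA1 list.

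The 8 strongest FOXA1-not-FOXA2 sites all fell within chromosome 1's gene-free stretch. At the first, chr1:122829260-122830726, −log10 p in the weaker and stronger replicate was 67.4 and 70.9 at full length and 58.6 and 73.4 after CTD deletion. This site was also in both FOXA3 lists, with 62.4 and 68.4 in the weaker replicate, and in the SOX2 and fusion lists, with 3.74 and 5.01. The second, chr1:122639997-122640920, reached 20.8 and 26.6 at full length and 20.7 and 25.4 after CTD deletion, and was likewise in the FOXA3, SOX2 and fusion lists. The other 6 had strengths from 14.8 to 19.6, each was in the FOXA3FL and fusion lists, and the nearest FOXA2 peak was 603 to 5769 bp away. Of these 8 sites, 7 were also in the SOX2 list, although SOX2 is not a forkhead protein.

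Outside the stretches, the strongest FOXA1-not-FOXA2 site lay in DROSHA, the nuclease that starts microRNA processing, at chr5:31478781-31480288. Its −log10 p was 13.9 and 14.6 at full length and 20.8 and 35.2 after CTD deletion, and a FOXA2 peak lay 148 bp away. Next came chr15:59701705-59703646, 13.3 kb from an end of BNIP2, with 14.6 and 18.1 at full length and 13.1 and 26.1 after deletion. A site in the gene desert beside the cadherin gene CDH9, chr5:26154887-26156099, had 13.0 and 17.8, then 13.0 and 33.2. In USP46, a deubiquitinase gene, chr4:52651540-52653143 had 12.7 and 32.8, then 24.6 and 59.9. The replicates of this site differed more than those of the DROSHA site at full length. The remaining 4 of the 8 strongest, with strengths of at most 12.6, lay inside SPTBN1, a spectrin of the membrane skeleton, and SDK1, an adhesion protein, and outside genes, 318 kb from ARAP2 and 1053 kb from KCNV1. Of these 8 sites, chosen after the data were seen, 6 were in neither FOXA3 list. The USP46 site was in the FOXA3FL list and the site near ARAP2 in both. Among all FOXA1-not-FOXA2 sites outside the stretches, 1.20% were in FOXA3FL and 1.35% in FOXA3dCTD.

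The gap to the nearest FOXA2 peak is partly set by the rule, which removes sites with a gap of 0. Its median was 10.5 kb outside the stretches and 3.31 kb inside. Sites of the FOXA1FL list alone with no FOXA2 peak had a median of 10.5 kb outside the stretches, and those of the FOXA1dCTD list alone 11.6 kb. Over all 4903 sites a FOXA2 peak lay within 100 bp of 12, within 500 bp of 182 (3.71%), within 1 kb of 387 (7.89%) and within 10 kb of 2490 (50.8%), and 124 had none within 100 kb. At the limit of the rule, 5 FOXA1-not-FOXA2 sites had a FOXA2 peak within 50 bp beside them, with a median strength of 3.65, and 2 sites were left out because a FOXA2 peak overlapped a FOXA1 peak by at most 50 bp, with a median of 3.19. The closest was in DLGAP1, a postsynaptic scaffold, at chr18:3833943-3834966. It had 6.34 and 11.3 at full length and 6.95 and 16.2 after CTD deletion, and a FOXA2 peak 1 bp away. PPP2R5E, a regulatory subunit of protein phosphatase 2A, held chr14:63431849-63432476, with a strength of 5.29 and a FOXA2 peak 90 bp away.

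The most isolated strong sites had no FOXA2 peak within 100 kb. They included chr3:83916771-83917251, in a gene desert 1042 kb from CADM2, with 6.48 and 9.57 at full length, 7.49 and 14.4 after CTD deletion, and 157 kb to the nearest FOXA2 peak. Inside COG7, a Golgi trafficking gene, chr16:23423164-23424055 had 6.48 and 8.44, then 7.38 and 8.60, at 182 kb. PDXK, which makes the active form of vitamin B6, held chr21:43726617-43727112 with a strength of 5.86 at 125 kb.

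FOXA3, the third member of the family, was tested in its own cell lines, and its lists took no part in the choice of sites. FOXA1-not-FOXA2 sites carried FOXA3 peaks seldom. Outside the gene-free stretches, the FOXA3dCTD list overlapped 63 of 4650 FOXA1-not-FOXA2 sites, 1.35% (1.06 to 1.73), against 5.66% of all merged sites. It overlapped 2045 of 9319 sites of all 4 lists, 21.9%, a difference of -20.6 points (-21.5 to -19.7). For the FOXA3FL list the shares were 1.20% (56 sites) and 19.1%, a difference of -17.9 points (-18.7 to -17.0), with 4.77% of all merged sites. FOXA2-not-FOXA1 sites carried FOXA3 peaks more often than FOXA1-not-FOXA2 sites, with 7.03% in FOXA3dCTD and 5.45% in FOXA3FL. Those differences were -5.67 points (-6.51 to -4.86) and -4.25 points (-5.01 to -3.53).

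The FOXA3 share followed the FOXA2dCTD list more than the FOXA2FL list. Among sites of both FOXA1 lists outside the stretches, FOXA3dCTD peaks were on 1.35% of those with no FOXA2 peak, 4.01% of those with a FOXA2FL peak alone, 16.1% of those with a FOXA2dCTD peak alone, and 21.9% of those with both. Sites of the FOXA1FL list alone had 0.781% and those of the FOXA1dCTD list alone 0.798%. Sites of the FOXA2FL list alone had 0.657% and those of the FOXA2dCTD list alone 2.43%, so a low share was not particular to FOXA1-not-FOXA2 sites. These 4 lists come from different cell lines, and the comparison between the FOXA2 patterns was chosen after the data were seen.

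The difference in FOXA3 peaks was present at every FOXA1 strength. In the 4 classes of strength, weakest first, FOXA3dCTD peaks were on 1.29%, 1.47%, 1.11% and 1.77% of FOXA1-not-FOXA2 sites and on 18.4%, 17.6%, 19.6% and 27.8% of sites of all 4 lists. For FOXA3FL the values were 1.12%, 1.54%, 0.705% and 1.55%, against 15.2%, 14.9%, 16.9% and 24.9%. The intervals of all 8 differences lay below 0, but the FOXA3 lists share most FOXA3FL rows, so the 2 sets largely repeat 1 measurement. In the weakest class both kinds of site had a median strength of 2.96, and in the strongest class the medians were 5.95 and 6.77.

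**Figure D2:**
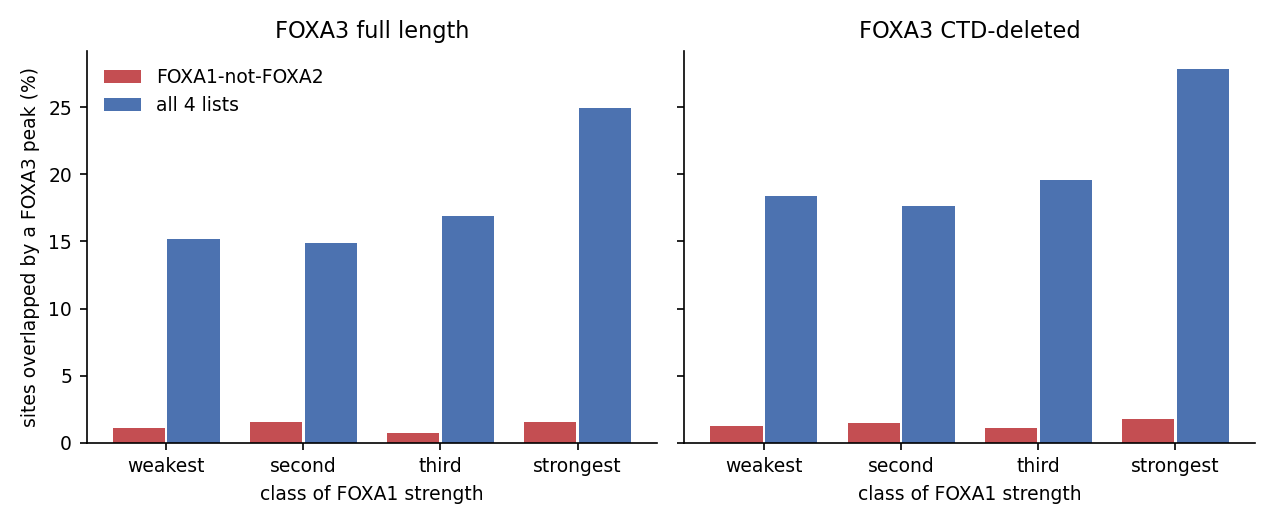
Percent of sites outside the gene-free stretches that a FOXA3 peak overlapped, by class of FOXA1 strength, for FOXA1-not-FOXA2 sites and sites of all 4 lists, with the FOXA3FL list left and the FOXA3dCTD list right. FOXA1-not-FOXA2 sites stay between 0.705% and 1.77% in every class, and sites of all 4 lists between 14.9% and 27.8%.

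Inside the gene-free stretches the levels were of another order. There the FOXA3FL list overlapped 172 of 253 FOXA1-not-FOXA2 sites, 68.0% (62.0 to 73.4), and the FOXA3dCTD list 58.5%. Sites of all 4 lists were again higher, at 95.2% and 87.0%, while FOXA2-not-FOXA1 sites had 3.06% and 1.33%. Over all chromosomes together, FOXA3FL peaks were on 228 FOXA1-not-FOXA2 sites (4.65%, against 5.50% of all merged sites) and FOXA3dCTD peaks on 211 (4.30%, against 6.17%). Of the 228, 172 lay in the stretches. With the rows shared between the FOXA3 lists left out and the stretches kept, FOXA3FL peaks were on 3.10% of FOXA1-not-FOXA2 sites and 2.55% of sites of all 4 lists. That difference was 0.554 points (-0.00805 to 1.16). Outside the stretches, a setting chosen after the data were seen, they were on 2 FOXA1-not-FOXA2 sites (0.0430%) and on 1.15% of sites of all 4 lists, a difference of -1.11 points (-1.34 to -0.878).

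The strongest FOXA1-not-FOXA2 site outside the stretches with peaks in both FOXA3 lists was chr4:35686826-35688149, 318 kb from ARAP2, a regulator of small GTPases. It had 12.6 and 18.4 at full length of FOXA1, 16.2 and 35.3 after CTD deletion, and the same value, 12.9, in both FOXA3 lists. Inside PLEKHA8, a lipid transfer protein gene of the Golgi, chr7:30083015-30084155 had a FOXA1 strength of 7.49 and 9.42 in both FOXA3 lists. DENND4A, which acts on Rab GTPases, held chr15:65731790-65732676, with 7.23 at full length, 23.5 after CTD deletion and 15.7 in both FOXA3 lists. Near SYT10, a synaptotagmin gene, chr12:33369973-33370778 had a strength of 6.36 and 8.30 in both FOXA3 lists. These 4 were chosen after the data were seen.

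SOX2 and the SOX2-FOXA2 CTD fusion bind through another domain and give a comparison outside the forkhead family. The weakest IDR was 0.920 in the fusion list and 0.100 in the SOX2 list, beside 0.100 in FOXA3FL and 0.0100 in FOXA3dCTD. Shares of different lists therefore rest on unlike limits, and the fusion list was hardly limited by IDR. Over all chromosomes, SOX2 peaks were on 163 FOXA1-not-FOXA2 sites, 3.32% (2.86 to 3.86) against 0.983% of all merged sites, and every one of the 163 was in a gene-free stretch. Outside the stretches SOX2 peaks were on 0 of 4650 FOXA1-not-FOXA2 sites, which allows a share of up to 0.0645% by a limit of 3 counts (0.0825% by the Wilson interval), against 10 of 9319 sites of all 4 lists (0.107%) and 0.0603% of all merged sites. The fusion was on 231 FOXA1-not-FOXA2 sites, 4.71% against 2.76% of all merged sites. Outside the stretches it was on 35 (0.753%, 0.542 to 1.04), against 2.22% of sites of all 4 lists and 1.57% of all merged sites, a difference of -1.47 points (-1.85 to -1.06).

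The excess over sites of all 4 lists seen with all chromosomes pooled, 1.94 points for SOX2 and 1.16 for the fusion, thus had the opposite sign outside the stretches. It also had the opposite sign inside them, where SOX2 peaks were on 64.4% of FOXA1-not-FOXA2 sites and 82.9% of sites of all 4 lists, and fusion peaks on 77.5% and 88.4%. The stretches held 5.16% of FOXA1-not-FOXA2 sites and 146 of the 9465 sites of all 4 lists. The lists of the first replicate alone gave 0 SOX2 and 3 fusion peaks on the 253 FOXA1-not-FOXA2 sites in the stretches. The shares of 64.4% and 77.5% in the combined lists were thus not seen in the first-replicate lists. Those lists did reach the stretches, with 33.6% of sites of all 4 lists there for SOX2 and 33.6% for the fusion. On FOXA2-not-FOXA1 sites there they had 39.9% and 35.6%, where the combined lists had 5.85% and 13.3%. Outside the stretches the first-replicate lists gave 1.23% and 3.85%, against 5.58% and 10.8% at sites of all 4 lists.

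**Figure D3:**
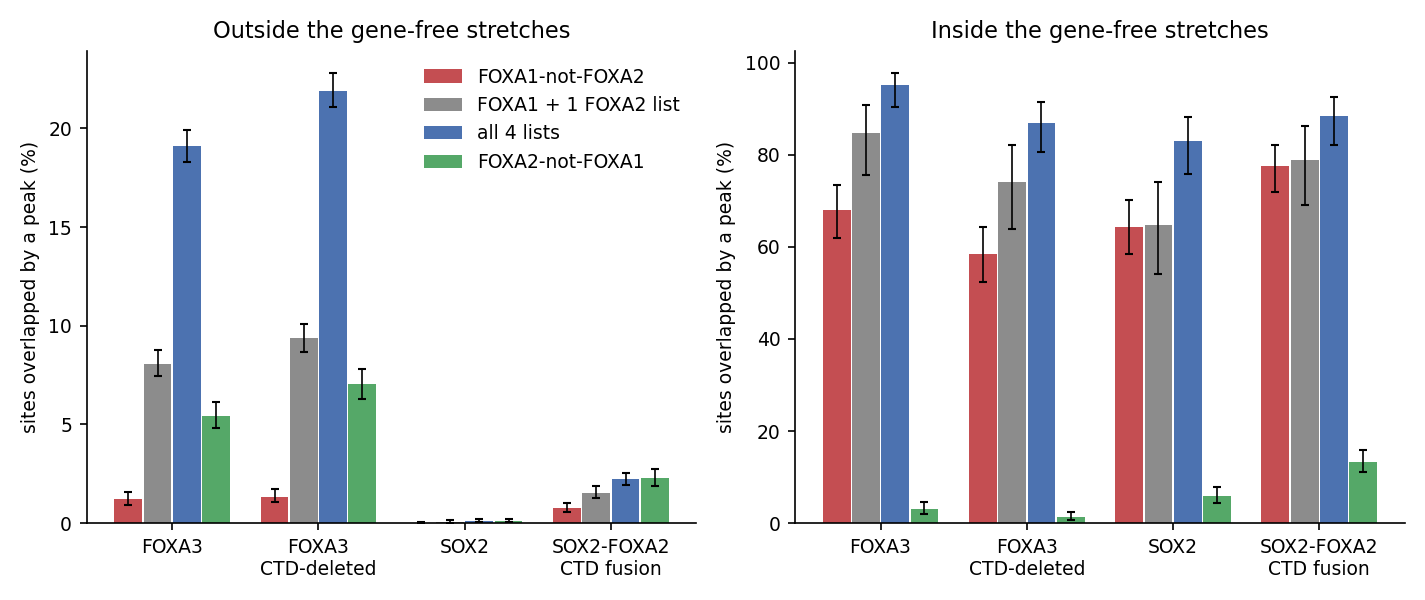
Percent of sites overlapped by a peak of the FOXA3FL, FOXA3dCTD, SOX2 and SOX2-FOXA2 CTD fusion lists, for 4 classes of sites, outside (left) and inside (right) the gene-free stretches, with 95% Wilson intervals. Outside, FOXA1-not-FOXA2 sites have the lowest FOXA3 shares of these 4 classes, 1.20% and 1.35%. Inside, they have 68.0% and 58.5%, and the vertical scales of the panels differ.

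FOXA1-not-FOXA2 sites lay farther from genes than the other classes. Their median distance to the nearest end of a protein-coding gene was 77.3 kb outside the stretches, against 57.8 kb at sites with 1 FOXA2 list, 52.0 kb at sites of all 4 lists and 44.2 kb at FOXA2-not-FOXA1 sites. Summits within 1 kb of such an end numbered 109, or 2.34% (1.95 to 2.82), against 4.66% of all merged sites outside the stretches. The share was 3.33% at sites of all 4 lists, a difference of -0.982 points (-1.53 to -0.395), and 6.96% at FOXA2-not-FOXA1 sites, a difference of -4.61 points (-5.49 to -3.76). Inside a protein-coding gene lay 44.2%, against 47.0% of all merged sites outside the stretches and 48.6% of sites of all 4 lists, a difference of -4.41 points (-6.15 to -2.65). With an IDR of at most 0.05 in all 4 lists, and the stretches kept, both differences from sites of all 4 lists had intervals across 0, at -0.0483 points (-1.51 to 1.06) and -2.21 points (-5.85 to 1.40). That limit also drops FOXA2 peaks, and most of the 4458 sites it counts as FOXA1-not-FOXA2 had a FOXA2 peak in the full lists. With the limit on both FOXA1 lists only, which left 1273 sites, the differences were -1.22 points (-2.15 to -0.0827) and -7.35 points (-10.3 to -4.31). The gene table gives no strand or exons, so a gene end is a start or a finish, and exons were not told from introns.

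The share of FOXA1-not-FOXA2 sites among sites of both FOXA1 lists rose with distance from genes. It was 17.7% within 1 kb of a protein-coding gene end, 19.7% from 1 to 10 kb, 20.3% from 10 to 50 kb, 22.9% from 50 to 100 kb, 24.7% from 100 to 500 kb and 31.0% (29.1 to 33.0) beyond 500 kb. The farthest bin was above the nearest in each class of strength: 46.2% against 28.8% in the weakest class, 34.4% against 20.6%, 28.6% against 13.6%, and 12.8% against 7.38% in the strongest.

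**Figure D4:**
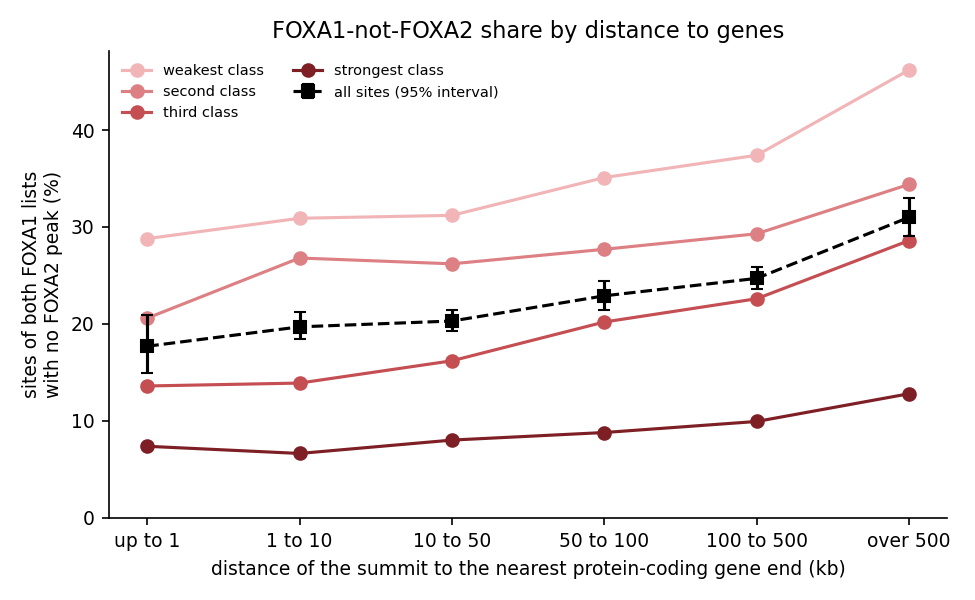
Percent of sites of both FOXA1 lists that were FOXA1-not-FOXA2, by distance of the summit to the nearest protein-coding gene end in kb, outside the gene-free stretches. Coloured lines are classes of FOXA1 strength and the dashed line is all sites with 95% Wilson intervals, from 17.7% up to 1 kb to 31.0% over 500 kb.

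At gene ends, the strongest FOXA1-not-FOXA2 site was at ADNP2, a homeobox gene, at chr18:80139569-80140637. Its summit was 90 bp from the gene end, with 9.72 and 12.3 at full length and 11.1 and 13.3 after CTD deletion. KLRC1, which encodes an inhibitory receptor of natural killer cells, had chr12:10441943-10442582 with its summit 2 bp from the gene end, and 8.42 and 8.80, then 7.55 and 14.3. ME3, a mitochondrial malic enzyme gene, had chr11:86434346-86435619, 77 bp from the end, with 11.9 and 12.8, then 7.27 and 20.6. The replicates of these sites stood closer together at full length than after CTD deletion at KLRC1 and ME3. The other 5 of the 8 strongest were at DNAAF5, RASA3, GNB3, LETM2 and CYTH3, with strengths from 5.47 to 6.72. Only the site at LETM2 was in a FOXA3 list, with 5.60 in FOXA3dCTD.

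Of 19974 protein-coding genes, 1546 (7.74%) had a FOXA1-not-FOXA2 summit inside and 3403 (17.0%) had one inside or within 50 kb. For sites of all 4 lists these numbers were 2834 (14.2%) and 6517 (32.6%). A FOXA1-not-FOXA2 site but no site of all 4 lists lay inside 754 genes, 3.77% of all protein-coding genes. These 754 are part of the 1546, and only 14.2% of all protein-coding genes held a site of all 4 lists. FOXA1-not-FOXA2 sites were denser in long genes, with 1.22 per Mb in genes up to 50 kb, 1.59 from 50 to 200 kb, 1.76 from 200 to 500 kb and 1.89 beyond. Sites of all 4 lists had 2.95, 3.80, 3.91 and 3.29 per Mb in the same classes.

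The genes with the most FOXA1-not-FOXA2 sites were among the longest, and the first 8 ranged from 1103 to 1987 kb. PCDH15, a cadherin of the tip links of inner ear hair cells, held 16 of its 43 sites of both FOXA1 lists as FOXA1-not-FOXA2 sites, with strengths from 2.69 to 4.86. CADM2, a synaptic adhesion gene, held 12 of 27, CCSER1 11 of 18, and CTNNA3 11 of 41. EYS, a photoreceptor protein, held 9 of 27, CDH12, a cadherin, 8 of 23, and SGCZ, a sarcoglycan, 8 of 19. Among genes with 5 or more FOXA1-not-FOXA2 sites, ranked per Mb of gene, THSD7A and CADM2 led with 10.8 each, followed by PCDH15 with 8.77, PHACTR1, a regulator of actin and phosphatase 1, with 8.76, and DCC with 7.53.

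DCC, the receptor of the guidance cue netrin, stood apart in make-up. Of its 12 sites of both FOXA1 lists, 9 were FOXA1-not-FOXA2, 3 had 1 FOXA2 list and 0 were in all 4 lists. The gene was not empty of FOXA2, with 16 peaks of FOXA2FL and 11 of FOXA2dCTD beside 21 of FOXA1FL and 27 of FOXA1dCTD. It held 0 FOXA3 peaks, as did CCSER1 and CDH12 above, so this was not particular to DCC. Its strongest FOXA1-not-FOXA2 sites were chr18:52940904-52942153, with 6.68 and 8.35 at full length and 8.31 and 8.41 after CTD deletion, and chr18:52905161-52906546, with 5.30 and 5.46, then 8.60 and 13.2. The gaps to the nearest FOXA2 peak were 3.47 and 8.36 kb. DCC was singled out after its values were seen.

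Genes were also grouped into 6 lists of 20. A FOXA1-not-FOXA2 site lay inside or within 50 kb of 4 luminal and FOXA1 co-factor genes, 3 definitive endoderm and hepatocyte genes, 6 osteoblast and mesenchymal genes, 5 AP-1 and YAP-TEAD genes and 3 actin and focal adhesion genes. Beside the 17.0% of all protein-coding genes, these are shares of 15.0% to 30.0%. Among axon guidance genes it was 10 of 20 (50.0%), and 9 (45.0%) held one inside. These genes had a median length of 372 kb, and a FOXA1-not-FOXA2 site lay inside 37.8% of all protein-coding genes from 200 to 500 kb and 63.4% of those beyond. The 10 include DCC, ROBO1 and ROBO2, receptors of the Slit cues, EFNA5, EPHA3 and EPHA4 of the ephrin system, and the semaphorins SEMA3A, SEMA3C, SEMA3E and SEMA5A. ROBO1 held 3 FOXA1-not-FOXA2 sites among 9 sites of both FOXA1 lists, with strengths from 2.62 to 3.24, and ROBO2 held 2 and no site of all 4 lists. Sites of all 4 lists were within 50 kb of 5, 6, 6, 7, 9 and 13 genes of the 6 lists in the order above.

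Along the chromosomes the share of FOXA1-not-FOXA2 sites was fairly even, with exceptions at both ends. Chromosome X had the highest share, 72 of 209 sites of both FOXA1 lists outside its gene-free stretch, or 34.4% (28.3 to 41.1), against 22.8% elsewhere, a difference of 11.6 points (5.51 to 18.3). Among sites below the median strength it was 40.0%, and among those above it 24.3%. The next highest chromosomes had 38.5% (chromosome 13) among the weaker sites and 18.7% (chromosome 16) among the stronger. The part of strength in the share of chromosome X was not tested. The reverse class was not raised on chromosome X: of 240 sites of both FOXA2 lists, 18.8% had no FOXA1 peak, a difference of -1.81 points (-6.27 to 3.63) from the rest. The 2 strongest FOXA1-not-FOXA2 sites of chromosome X outside the stretch were looked up after the data were seen. The first was in TSPAN7, a tetraspanin gene, at chrX:38602164-38602826. It had 10.7 and 12.2 at full length and 7.49 and 21.1 after CTD deletion. KDM6A, which encodes a histone H3 lysine demethylase, held the next, chrX:44876719-44877397, with a strength of 5.33.

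Chromosome 22 had the lowest share, 47 of 344 sites, 13.7% (10.4 to 17.7), a difference of -9.42 points (-12.7 to -5.34) from the rest. There the reverse class was raised, with 186 of 518 sites of both FOXA2 lists (35.9%) lacking a FOXA1 peak, 15.7 points above the rest (11.7 to 20.0). Chromosome 21 had 33.1% of FOXA2 sites without FOXA1, with an unremarkable FOXA1-not-FOXA2 share of 23.3%. On chromosome 14 the FOXA1-not-FOXA2 share was 26.6%, 3.77 points above the rest (0.150 to 7.72). The reverse class there was 28.9%, 8.66 points above the rest (5.32 to 12.2). In all, the difference of a chromosome from the rest had an interval above 0 on 3 chromosomes (13, 14 and X), below 0 on 3 (15, 17 and 22), and across 0 on 17. The intervals of chromosomes 13 (0.0678 to 9.43), 14, 15 (-6.21 to -0.335) and 17 (-7.05 to -0.792) came close to 0.

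**Figure D5:**
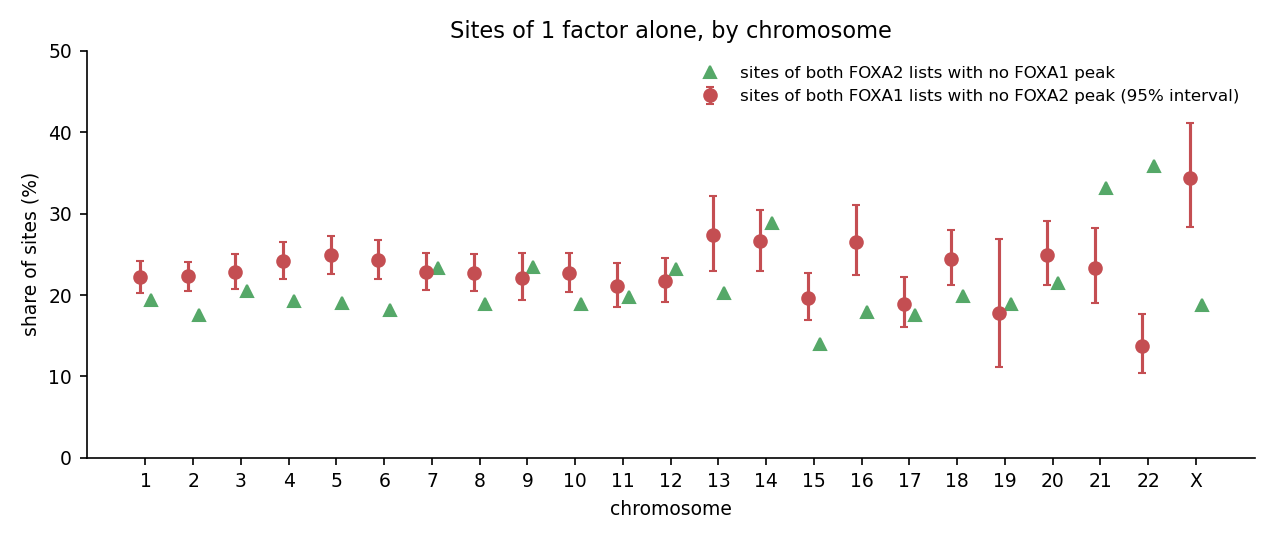
Share of sites in percent on each chromosome outside the gene-free stretches. Circles with 95% Wilson intervals are sites of both FOXA1 lists with no FOXA2 peak, triangles are sites of both FOXA2 lists with no FOXA1 peak. Chromosome X has the highest circle, 34.4%, and chromosome 22 the lowest, 13.7%, with the highest triangle, 35.9%.

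At a finer scale, 835 windows of 1 Mb held 10 or more sites of both FOXA1 lists. Their median FOXA1-not-FOXA2 share was 21.4%, 40 windows held 0 FOXA1-not-FOXA2 sites, and the interval of 42 windows (5.03%) lay above the overall 23.6%, while that of 11 lay below it. Of the 42, 5 touched a gene-free stretch. The highest share was in chromosome 13 from 16000001 to 17000000, inside the stretch, with 31 of 41 sites (75.6%). Next was chromosome 4 from 62000001 to 63000000, around the adhesion receptor gene ADGRL3, with 8 of 11. Chromosome 3 from 28000001 to 29000000, which holds CMC1, AZI2 and ZCWPW2, had 8 of 12. In chromosome 1, the window from 122000001 to 123000000 in the stretch had 37 of 56, and in chromosome 11 the window from 99000001 to 100000000, within CNTN5, a neural adhesion gene, had 7 of 11. FOXA2 peaks were present in each of these 5 windows, from 13 to 40 of FOXA2FL and from 13 to 34 of FOXA2dCTD.

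The spacing to any other FOXA1 site was compared with that of sites of all 4 lists. Outside the stretches, another site of both FOXA1 lists lay within 10 kb of 882 of the 4650 and of 1773 of the 9319 sites of all 4 lists, a difference of -0.0579 points (-1.42 to 1.34). With the stretches included the shares were 22.6% and 20.1%, a difference of 2.54 points (1.12 to 3.97). Another FOXA1-not-FOXA2 site within 10 kb was found for 4.75% outside the stretches and 8.12% with them, with no comparison made.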

How the data were processed

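Flag ChIP-seq peak lists of 8 factor groups in U2OS cells were used, each made by the authors from 2 replicates, and for SOX2 and the fusion also the first replicate's list. Per the file headers and layout, the deposited columns give positions, an IDR score, and the −log10 p of each peak per replicate, and the −log10 columns and the score are the authors' own. The score is 125 times log2 of 1 over the IDR. The submitters' processing notes name hg38, FastQC 0.10.1, Trim Galore, Bowtie2 2.4.4, SAMtools 0.1.18, MACS2 and deepTools 2.4.1, and the IDR program is not given in the sources used here. Fold enrichment, a ratio over local background that the authors give in the first-replicate lists, was not needed. The extraction protocol gives doxycycline per ul where the treatment label gives ml.

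Sites were merged, classed and compared in Python 3.11.15 with pandas 2.3.3, numpy 2.4.6 and scipy 1.17.1, and the code was tested on simulated peaks. Overlap means at least 1 bp. The position of a site is its FOXA1dCTD summit. Where that was missing, the FOXA2dCTD summit was taken, then FOXA1FL, then FOXA2FL, so FOXA2-not-FOXA1 sites are placed by a FOXA2dCTD summit. Genes, 19974 of them protein-coding, and promoter windows came from RefSeq (GRCh38.p14). Planned searches of sequence around summits were replaced by promoter windows, since no genome sequence was used.

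Members, gene lists and tests were chosen with earlier results of these data known. Sites and genes named are the strongest by rule: 8 in all, 8 at gene ends, 4 in FOXA3 lists, 4 in SOX2 lists, 4 with a FOXA2 peak within 100 bp and 4 with none within 100 kb, 8 in promoter windows, 8 genes with most sites and 5 windows. For the SOX2 lists these are the strongest stretch sites already described. Sites outside the stretches, on chromosome X and in DCC were added after the data were seen. No p-value was computed.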

Additional observations from a re-analysis of the deposited data

Results flagged for a closer look

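On contigs other than the chromosomes, which no comparison above used, 33 of 156 sites of both FOXA1 lists had no FOXA2 peak (21.2%, 15.5 to 28.2), close to the 23.6% on the chromosomes. They lay on 22 contigs, with a median strength of 3.23 and a highest of 7.53, and each FOXA3 list overlapped 1 of them. They are given because they are a signal in data left out of the report.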

How the results depend on the processing

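Of 86 alternative values of 9 results, 67 kept their direction and their side of 0 (or stayed within 1.5 times for a count), 13 changed direction and 6 lost the call or moved further. The cause was not tested. Differences are FOXA1-not-FOXA2 sites minus sites of all 4 lists, in percentage points over all chromosomes unless stated. The SOX2 and fusion differences, 1.94 and 1.16, became -0.107 and -1.47 without the gene-free stretches, -1.28 and -2.16 with an IDR of at most 0.05 in all 4 lists, and -4.85 and -7.44 with first-replicate lists. Settings chosen after seeing the data gave -4.35 and -6.96 (first-replicate lists without stretches), -0.113 and -1.55 (sites below the median strength, without stretches), and -0.104 and -1.51 (sites above it), with intervals across 0 for SOX2 in the latter pair of settings. The fusion difference was 0.547 when FOXA1-not-FOXA2 sites had to have no FOXA2 peak within 1 kb. The FOXA3FL difference became 0.554 (-0.00805 to 1.16) with the shared rows left out and the stretches kept. The difference near gene ends was -0.0483, and that inside genes -2.21, with an IDR of at most 0.05 in all 4 lists, both with intervals across 0. With that limit on both FOXA1 lists only, they were -1.22 and -7.35, with intervals below 0. The difference near gene ends was -0.870 among sites above the median strength, without stretches, also with an interval across 0. FOXA1-not-FOXA2 sites numbered 1273 with an IDR of at most 0.05 in both FOXA1 lists, and between 3976 (summits within 100 bp) and 4958 (no merging) under the other rules. That range includes 4458 with an IDR of at most 0.05 in all 4 lists, a limit that also drops FOXA2 peaks. Beside the 1273, most of these 4458 had a FOXA2 peak in the full lists, so they are largely other sites. Genes with a FOXA1-not-FOXA2 site numbered 1546 when the summit had to lie inside, against 3403 within 50 kb. The planned searches around summits were not run, since no genome sequence was used. No paired analysis was possible because each group has 1 combined list whose replicate columns carry no number, and for the same reason leaving out a replicate was not possible except as the first-replicate lists of SOX2 and the fusion. Library depth is unknown, so it cannot be said which absent FOXA2 peaks a deeper library would list.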
